A study of Mus musculus with 12 samples.

Results

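The nuclear genes for subunits of the mitochondrial oxidative phosphorylation system were followed across 12 samples of mouse central nervous system. The set was a list of 59 gene symbols, and a gene entered where a probe set of the array carried its symbol and no other. Of the 59 genes, 57 were measured, out of 18193 genes with such a probe set, and all 57 lay above the filter on dim probe sets that left 12598 genes for testing. They comprised 28 genes of complex I, 4 of complex II, 8 of complex III, 10 of complex IV and 7 of ATP synthase. Ndufs6 and Cox7b had no probe set of their own symbol and were not analysed here. The mice were wild type or NR3B knockout and were sampled on postnatal day 0 (P0) or postnatal day 5 (P5), with 3 samples in each of the 4 groups. NR3B was taken to be the glycine-binding NMDA receptor subunit whose gene is Grin3b. The labels give neither strain, sex nor the construction of the allele, and they do not say that the samples of a group came from separate animals. The p-values therefore rest on a spread between samples that may be technical and may lack variation between animals.

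Oxidative phosphorylation takes place in the inner mitochondrial membrane. Complex I and complex II pass electrons from NADH and succinate to ubiquinone, complex III passes them to cytochrome c, and complex IV passes them to oxygen. Complexes I, III and IV pump protons, and ATP synthase uses the returning protons to make ATP, which neurons spend largely on ion pumping and synaptic transmission. Most subunits are encoded in the nucleus, translated on cytosolic ribosomes and imported, while a few are encoded in mitochondrial DNA and translated on mitochondrial ribosomes. In the rodent brain, respiration is known to expand after birth as the tissue turns from glycolysis and ketone bodies towards full oxidation of glucose.

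Each sample was read on its own Affymetrix array, whose probes lie near the 3′ end of transcripts, and the values were deposited as signals on a linear scale. Array medians of the signal lay between 607 and 737, and the number of arrays limits the precision. The targeted gene's probe set had signals of 198 to 353 in P0 wild type and 31.4 to 96.9 in P0 knockout. At P5 these were 155 to 273 and 39.7 to 48.5 (3 samples each), so the genotypes did not overlap at either age. Sample titles give brain, hindbrain and spinal cord as the tissue, whereas the descriptions give brain alone. Of 13 measured markers of hindbrain and spinal cord, 12 lay above the filter, with Chat below it. Of 7 measured forebrain markers, 3 lay above it, and Emx1, Tbr1, Dlx1 and Dlx2 were below. All 10 neuronal markers were above the filter. The samples were bulk tissue, so fewer cells of a type and less RNA per cell cannot be told apart.

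The P0 samples stood apart from one another in these genes, and they did so across the genotypes. For 47 of 57 genes, the 3 lowest of the 6 P0 samples were wild-type sample 1, wild-type sample 3 and knockout sample 1. Each gene's level was taken as log2(signal + 16) after quantile normalization and set against its own mean over the 12 samples. The median of this deviation over the 57 genes was -0.75 in P0 wild-type sample 1, 0.22 in sample 2 and -0.66 in sample 3. In P0 knockout it was -0.33 in sample 1, 0.24 in sample 2 and 0.28 in sample 3. The P5 samples lay close together, at 0.21, 0.19 and 0.09 in wild type and 0.15, 0.09 and 0.23 in knockout. P0 wild-type sample 2 and P0 knockout samples 2 and 3 thus reached or passed the level of the P5 samples, and the other P0 samples lay below all of those. Wild-type sample 1 held the lowest of the 12 values for 42 genes, and wild-type sample 3 for 9. The number of genes above their own mean was 4, 50 and 7 of 57 in the P0 wild-type samples, in the order of their numbers, and 7, 51 and 48 in the P0 knockout samples. It was between 43 and 52 in each P5 sample. With the deposited scaling and no quantile normalization, a choice made after the data were seen, the same samples were lowest for 50 of 57 genes. The medians were then -0.90, 0.34 and -0.71 in P0 wild type and -0.35, 0.32 and 0.41 in P0 knockout.

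**Figure D1:**
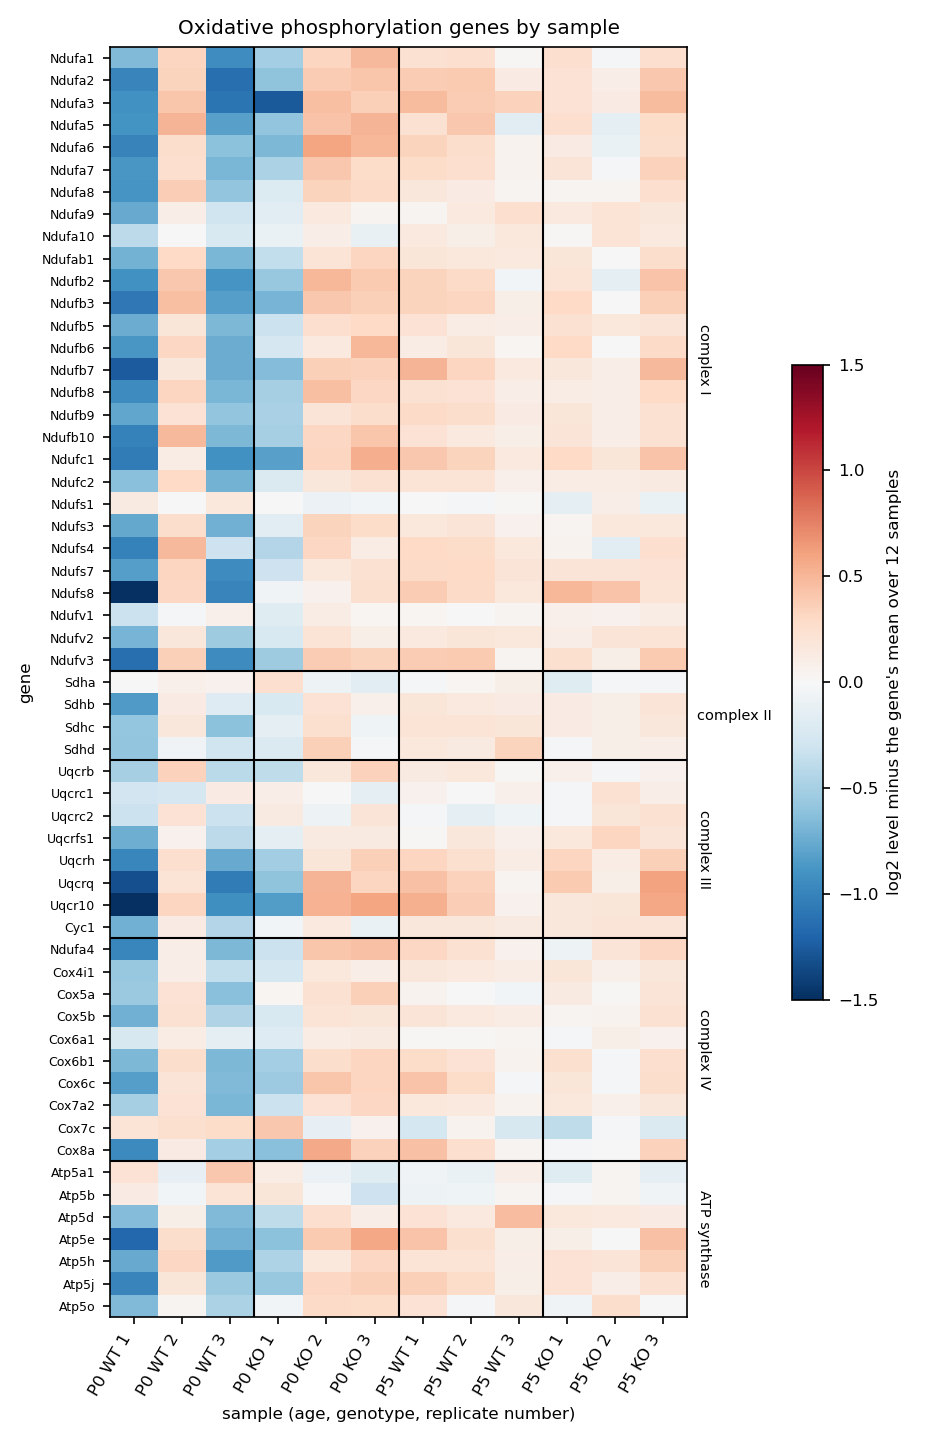
Rows are the 57 genes, grouped by complex, and columns are the 12 samples. Colour gives the log2 level minus the gene's mean over the 12 samples, so blue cells are below and red cells above that mean. Columns P0 WT 1, P0 WT 3 and P0 KO 1 are blue for most genes, while the 6 P5 columns and the other P0 columns are mostly pale red.

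The spread within a group was larger than that of the median gene at P0 and smaller or similar at P5. The median within-group SD of the 57 genes on the log2 scale was 0.546 in wild type at P0 and 0.349 in the knockout at P0, against 0.269 and 0.210 over all 12598 genes tested (n = 3 samples each). At P5 it was 0.0774 in wild type and 0.122 in knockout, against 0.119 and 0.133. The range over the 6 P0 samples had a median of 1.07 over the 57 genes, from 0.246 for Ndufs1 to 2.16 for Uqcr10. Over the 6 P5 samples the median range was 0.268, from 0.0537 for Cyc1 to 0.573 for Ndufa5.

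The same samples were low in every complex. In complex I the median deviation was -0.88, 0.30 and -0.70 in the P0 wild-type samples and -0.46, 0.32 and 0.30 in the P0 knockout samples. In complex II, the smallest complex, it was -0.59, 0.10 and -0.24 in wild type and -0.18, 0.23 and -0.04 in knockout. Complex III gave -0.72, 0.21 and -0.42 in wild type and -0.26, 0.16 and 0.26 in knockout. Complex IV gave -0.62, 0.20 and -0.57 in wild type and -0.29, 0.22 and 0.32 in knockout. ATP synthase gave -0.66, 0.09 and -0.56 in wild type and -0.38, 0.25 and 0.28 in knockout. The 3 lowest P0 samples were thus the same in each complex, although P0 knockout sample 3 also lay just below 0 in complex II.

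The pattern was shared by ribosomal genes and was smaller in the neighbouring pathways of energy metabolism. The 73 measured genes of the mitochondrial ribosome had median deviations of -0.84, 0.22 and -0.62 in the P0 wild-type samples and -0.29, 0.28 and 0.26 in the P0 knockout samples. The 43 genes of the cytosolic ribosome gave -0.44, 0.08 and -0.29 in wild type and -0.27, 0.15 and 0.15 in knockout. Assembly factors of the respiratory complexes, 39 genes, gave -0.54, 0.23 and -0.42 in wild type and -0.17, 0.24 and 0.24 in knockout. The 16 genes of the tricarboxylic acid cycle stayed between -0.18 and 0.03 over the 6 P0 samples, the 14 genes of glycolysis between -0.07 and 0.07, and 17 regulators of mitochondrial biogenesis between -0.09 and 0.11. The median over all genes tested stayed between -0.06 and 0.11 over the 12 samples. With the deposited scaling, the cytosolic ribosome gave -0.69, 0.36 and -0.52 in P0 wild type and -0.26, 0.27 and 0.24 in P0 knockout. The tricarboxylic acid cycle then reached -0.29 and glycolysis -0.17 in P0 wild-type sample 1. The size of the contrast between lists thus varied with the normalization. The lists of genes therefore differed in how far the low samples departed, and these are descriptions without a test.

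**Figure D2:**
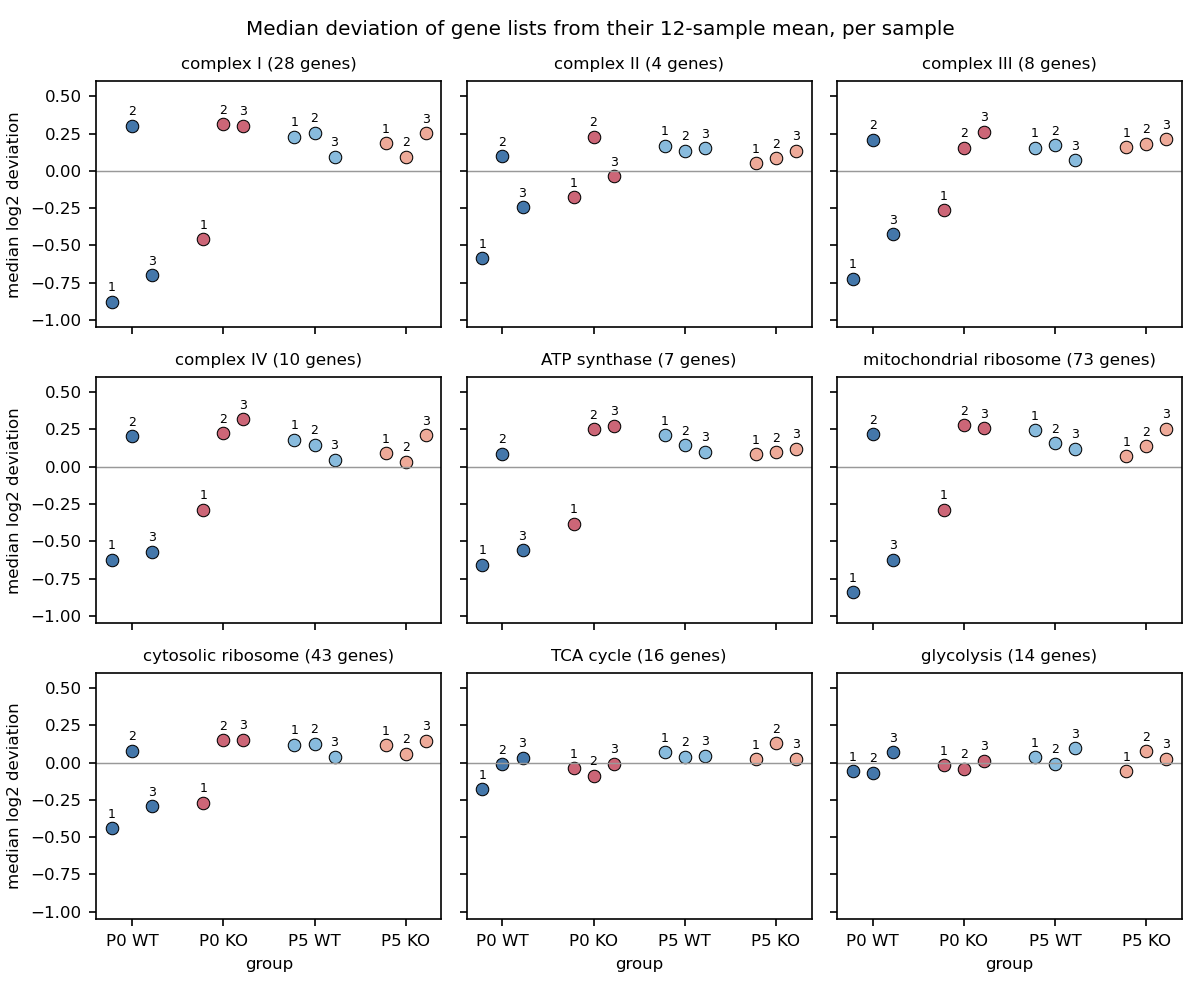
Each point is a sample, numbered by replicate, and the vertical axis gives the median over the genes of a list of the log2 deviation from each gene's mean over 12 samples. P0 samples 1 and 3 of wild type and 1 of knockout lie below 0 in the 5 complexes and in both ribosomal lists, while the points of the TCA cycle and glycolysis lie between -0.18 and 0.13 in all samples. All levels are quantile-normalized.

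Other measures moved with the samples, and their part in the pattern was not tested. The signal of the 18S ribosomal RNA control was 7728 in P0 wild-type sample 1, 100034 in sample 2 and 48911 in sample 3. It was 78423, 102801 and 90245 in the P0 knockout samples and between 86789 and 110512 at P5, so the order of the P0 samples placed the same 3 lowest. The ratio of 3′ to 5′ signal of Gapdh was 0.720, 0.784 and 0.760 in P0 wild type and 0.658, 0.784 and 0.839 in P0 knockout, against 0.731 to 0.790 at P5. Its 3 lowest P0 values were in the same 3 samples, although 0.760 lay within the P5 range. The ratio of actin was 1.28, 1.28 and 1.48 in P0 wild type and 1.24, 1.25 and 1.58 in P0 knockout, against 1.19 to 1.26 at P5, and it did not follow the order of the low samples. Among cell type markers, the 8 microglial genes had median deviations of -1.03, -0.02 and -0.81 in P0 wild type and -0.15, 0.35 and 0.04 in P0 knockout. Proliferation markers gave -1.11, -0.69 and -0.93 in P0 wild type and -1.08, -0.34 and -0.61 in P0 knockout. In both lists, and in skeletal muscle markers, the same 3 P0 samples were lowest. Astrocyte, oligodendrocyte, endothelial, meningeal, red blood cell, forebrain, and hindbrain and spinal cord markers had other samples among their 3 lowest. The 10 neuronal genes were at 0.31, 0.15 and 0.30 in P0 wild type and 0.19, 0.09 and 0.03 in P0 knockout, and below 0 in every P5 sample.

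The other 10 of the 57 genes, named here after their values were seen, did not share the usual 3 lowest P0 samples. Ndufs1, the largest core subunit of complex I, and Atp5a1 and Atp5b, the alpha and catalytic beta subunits of the ATP synthase head, had wild-type sample 2 and knockout samples 2 and 3 as their 3 lowest P0 samples after quantile normalization, but none of them did so with the deposited scaling. Atp5a1 read 16.33, 15.98 and 16.51 in the P0 wild-type samples, 16.21, 16.01 and 15.92 in P0 knockout, and between 15.92 and 16.21 at P5 (log2 level, by sample number). Its deposited signals were 63022, 77023 and 75053 in P0 wild type and 77589, 72775 and 69143 in P0 knockout, so that wild-type sample 2 was high and sample 1 lowest. For Atp5b the deposited signals were 65350, 95431 and 72397 in P0 wild type and 90979, 83921 and 70248 in P0 knockout, with wild-type sample 2 highest. Among such bright probe sets the order of samples therefore turned with the normalization. Ndufs1 read 14.23, 14.08 and 14.25 in P0 wild type and 14.09, 14.01 and 14.06 in P0 knockout, and between 13.95 and 14.19 at P5. Its wild-type sample 2 was lower than samples 1 and 3 with both scalings. All 4 groups overlapped for Ndufs1 and Atp5a1. Sdha, the flavoprotein that oxidizes succinate, read 14.72, 14.80 and 14.79 in P0 wild type and 14.98, 14.64 and 14.57 in P0 knockout, with wild-type sample 1 lowest of the 6 only under the deposited scaling, whereas the other subunits of complex II shared the usual 3 lowest samples. The remaining genes of the 10 were Cox7c, Ndufa10, Cyc1, Ndufv1, Uqcrc1 and Uqcrc2.

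Uqcr10, a small subunit of complex III, showed the common pattern at its widest. It read 12.41, 14.31 and 13.06 in the P0 wild-type samples and 13.14, 14.50 and 14.58 in P0 knockout. At P5 it read 14.52, 14.35 and 14.05 in wild type and 14.15, 14.17 and 14.57 in knockout. In wild type, P0 sample 2 lay within the P5 range and samples 1 and 3 below it. In knockout, P0 sample 2 lay within the P5 range, sample 3 just above it and sample 1 below it.

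Nuclear respiratory genes are known targets of the factors NRF1, GABPA (an ETS factor, also called NRF2) and YY1, so their promoters were searched for the core letters of these motifs. RefSeq promoter windows of assembly GRCm38.p6, running from 250 bases before to 50 bases after the transcript start, covered 48 of the 59 genes. On either strand, the NRF1 letters GCGCATGCG were found in 3 of the 48 genes (6.25%) against 1.95% of 27025 genes in the table, and the ETS letters CCGGAAG in 13 (27.1%) against 9.93%. The YY1 letters AAGATGGC were found in 8 (16.7%) against 3.19%, and at least 1 of the 3 motifs in 22 (45.8%) against 14.1%. A match is a description of these letters and not a binding site. Of the measured genes in the table, 21 with a match had a median log2 difference of 0.60 between P5 and P0 in wild type, and 25 without a match had 0.53. The promoters below run from 180 bases before to 30 bases after the start, on the minus strand of the genome and written 5′ to 3′ along the gene, with motif matches in capitals. They are those of Ndufs8, which had the largest P5 minus P0 difference in wild type among genes with an NRF1 or ETS match, of Cox6a1, which had the smallest, and of Sdhd, whose difference passed the test. Ndufs8 lies at chr19:3912745-3912954, Cox6a1 at chr5:115348929-115349138 and Sdhd at chr9:50603820-50604029.
Ndufs8: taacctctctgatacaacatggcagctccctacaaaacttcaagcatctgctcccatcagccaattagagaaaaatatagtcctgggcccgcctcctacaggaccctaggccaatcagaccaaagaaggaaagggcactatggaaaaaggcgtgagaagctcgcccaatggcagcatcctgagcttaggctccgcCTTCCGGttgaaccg
Cox6a1: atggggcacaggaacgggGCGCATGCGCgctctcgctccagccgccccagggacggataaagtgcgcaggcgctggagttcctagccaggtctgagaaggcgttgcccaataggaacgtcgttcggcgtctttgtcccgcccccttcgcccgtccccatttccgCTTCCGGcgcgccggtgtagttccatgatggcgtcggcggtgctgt
Sdhd: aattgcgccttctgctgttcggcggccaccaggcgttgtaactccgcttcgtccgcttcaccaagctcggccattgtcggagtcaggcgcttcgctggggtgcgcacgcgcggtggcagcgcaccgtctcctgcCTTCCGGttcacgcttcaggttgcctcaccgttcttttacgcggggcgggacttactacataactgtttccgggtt
The ETS letters were read on the opposite strand in all 3 genes, at 16 to 22 in Ndufs8, -16 to -10 in Cox6a1 and -46 to -40 in Sdhd, counted from the start of transcription. Cox6a1 also held the NRF1 letters on both strands, at -162 to -154 and at -161 to -153, and these matches overlap.

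In wild type, 4 of the 57 genes rose from P0 to P5, each in a different complex. Differences were tested with limma across all genes, with Benjamini-Hochberg adjustment over 12598 genes, and a gene counted as changed at an adjusted p under 0.05. Of all genes tested, 10.8% rose in this comparison, so the share of these genes that rose was below that background. At an unadjusted p under 0.05 there were 37 of the 57, and 4553 of the 12598 genes tested. The log2 difference was above 0 for 52 of 57 genes, with a median of 0.54 against 0.03 over all genes tested. With the deposited scaling 53 were above 0 and 0 passed the threshold.

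Ndufs8, a core complex I subunit that carries iron-sulfur clusters, read 13.51, 15.34 and 14.04 in the P0 wild-type samples and 15.41, 15.32 and 15.19 at P5. It rose by 1.01 on the log2 scale (SE 0.32, limma adjusted p = 0.0397), or 2.02-fold, although sample 2 of P0 lay within the P5 values. Atp5d, the delta subunit in the central stalk of ATP synthase, read 14.54, 15.28 and 14.54 at P0 and 15.41, 15.34 and 15.66 at P5, with no overlap. It rose by 0.68 (SE 0.20, limma adjusted p = 0.0306), or 1.60-fold. Sdhd, a membrane anchor of complex II, read 13.30, 13.85 and 13.60 at P0 and 14.06, 14.03 and 14.23 at P5, again with no overlap. It rose by 0.52 (SE 0.16, limma adjusted p = 0.0374), or 1.43-fold. Cyc1, the cytochrome c1 of complex III, read 14.40, 15.23 and 14.67 at P0 and 15.29, 15.29 and 15.25 at P5. It rose by 0.51 (SE 0.17, limma adjusted p = 0.0462), or 1.42-fold, and its P0 sample 2 came within 0.1 of the P5 samples.

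After quantile normalization, the P0 and P5 wild-type samples did not overlap for 8 of 57 genes in the upward direction. These were Atp5d, Cox4i1, Cyc1, Ndufa10, Ndufc1, Sdhb, Sdhc and Sdhd. Over all genes tested, 18.4% had all P5 samples above all P0 samples. In the deposited signals Ndufa10, Ndufc1, Sdhb and Sdhc did overlap, with P0 sample 2 above the lowest P5 sample. For Sdhc these were 21326 and 20398. For Cox7c all P5 samples lay below all P0 samples, at 9.77, 10.09 and 9.79 against 10.24, 10.28 and 10.31, with a log2 difference of -0.39 (SE 0.18, limma adjusted p = 0.142). Over all genes tested, 17.0% had all P5 samples below all P0 samples. The Cox7c probe set was the dimmest of the 57, with a mean log2 level of 10.03 against 13.44 for the next, so its measurement rests on a much lower signal than that of the other genes.

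Markers of cell types moved with age as well, and their part in these differences was not tested. In wild type, 7 of 8 oligodendrocyte markers rose from P0 to P5 with a median of 2.58, and 7 of 7 proliferation markers rose with a median of 1.98. Their summed signals went from between 62930 and 78593 to between 256818 and 281453 for oligodendrocytes, and from between 27943 and 42626 to between 92139 and 98911 for proliferation. Of the other lists, 6 of 10 markers of meninges and fibroblasts, 5 of 8 of microglia, 4 of 9 of astrocytes, 4 of 8 of endothelium and 2 of 4 of red blood cells rose. Of the neuronal markers, 5 of 10 fell, with sums of 535536 to 698864 at P0 and 456059 to 494971 at P5, and 5 of 12 markers of hindbrain and spinal cord fell. In the knockout, 8 of 8 oligodendrocyte, 6 of 7 proliferation and 6 of 9 astrocyte markers rose, and 2 of 10 neuronal markers fell.

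**Figure D3:**
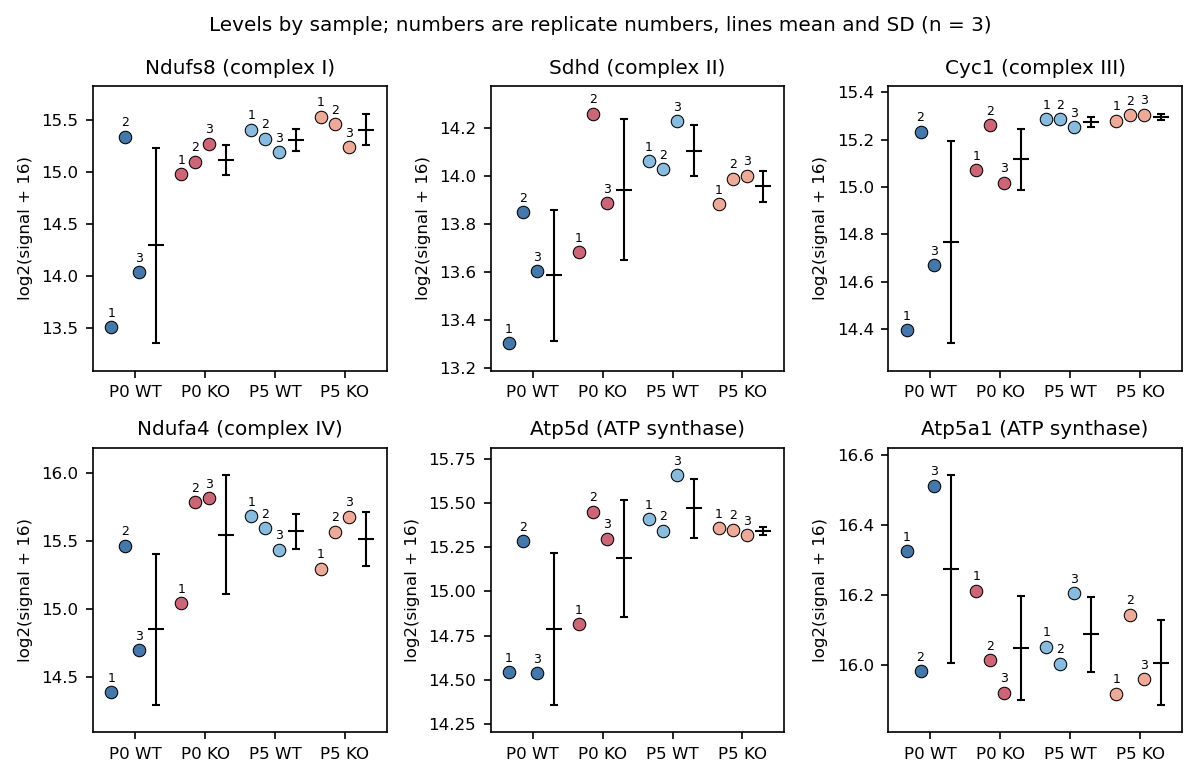
Points give log2(signal + 16) after quantile normalization in each sample, numbered by replicate, and the bar beside each group gives the mean and SD of its 3 samples. For Ndufs8, Sdhd, Cyc1, Ndufa4 and Atp5d the P0 wild-type samples 1 and 3 lie below sample 2, while for Atp5a1 they lie above it, an order that the deposited scaling does not keep.

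By role, the complex I differences ranged from -0.09 for Ndufs1 to 1.01 for Ndufs8, with a median of 0.57 over 28 genes and 27 above 0. Among its core subunits, Ndufs7 differed by 0.74, Ndufs3 by 0.55 and Ndufv2 by 0.51, while Ndufv1, which binds the FMN that receives electrons from NADH, differed by 0.11. Among its accessory subunits, Ndufb7 differed by 0.94, Ndufa3 by 0.93, Ndufc1 by 0.91 and Ndufa2 by 0.90, none past the threshold. In complex II, the anchor Sdhc differed by 0.53 (SE 0.18, limma adjusted p = 0.0509) and the iron-sulfur subunit Sdhb by 0.45, against -0.01 for Sdha.

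Complex III had a median of 0.48 over 8 genes. Its small subunits Uqcr10 and Uqcrq differed by 1.04 (SE 0.42, limma adjusted p = 0.0901) and 0.99, its Rieske iron-sulfur protein Uqcrfs1 by 0.44, and its large core proteins Uqcrc1 and Uqcrc2 by 0.19 and 0.07. Complex IV had 0 genes past the threshold by limma, 7 of 10 at an unadjusted p under 0.05 and a median of 0.45. Ndufa4, named for complex I and since assigned to complex IV, read 14.39, 15.47 and 14.70 at P0 and 15.69, 15.60 and 15.44 at P5, and differed by 0.72 (SE 0.25, limma adjusted p = 0.0570). In ATP synthase, the stalk subunits Atp5e, Atp5j, Atp5h and Atp5o differed by 0.80, 0.70, 0.60 and 0.48, while the head subunits Atp5a1 and Atp5b differed by -0.19 and -0.13, or by -0.03 and -0.0004 with the deposited scaling. The large subunits Sdha, Ndufs1, Uqcrc1, Uqcrc2, Atp5a1 and Atp5b thus stood at the low end of their complexes, a grouping chosen after the values were seen and not tested. Another probe set of Sdha above the filter gave the opposite sign to the one used.

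**Figure D4:**
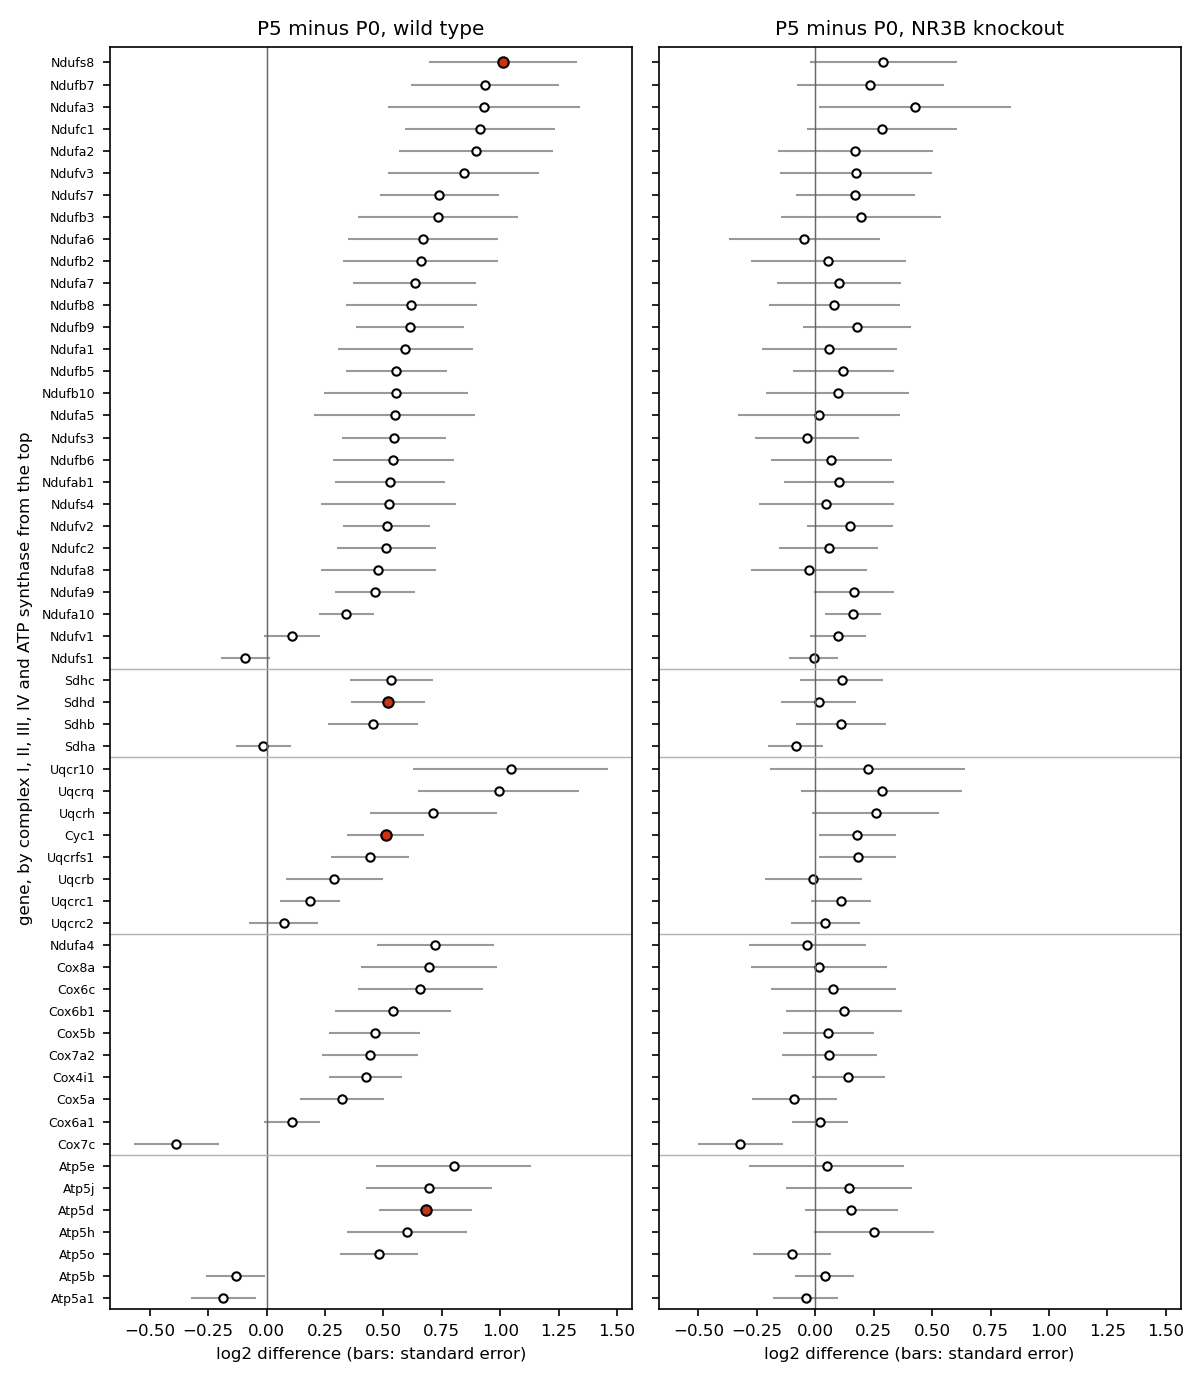
Points give the log2 difference P5 minus P0 for each gene, with its standard error, in wild type on the left and NR3B knockout on the right. Filled points passed the threshold, which 4 genes did in wild type and 0 in knockout. Most wild-type points lie above 0, and the knockout points lie closer to 0.

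The count of 4 depended on single samples. It was 49 without P0 wild-type sample 2, of which 48 were higher and 1, Atp5a1, lower. In that fit 21.9% of all genes rose, and 2070 of the 12598 fell. The direction of Atp5a1 turned with the scaling, since its mean difference without that sample was 0.02 under the deposited one. Leaving out sample 1 or sample 3 of P0 wild type gave 0 genes, as did leaving out any one of the P5 wild-type samples. It was 20 without P0 knockout sample 1, where 12.9% of all genes rose, 2 without P0 knockout sample 2, 3 without sample 3, and 1 without any one of the P5 knockout samples, since all groups share an estimate of the spread. The median difference over the 57 genes stayed between 0.37 and 0.87 when single samples were left out. The deposited scaling without quantile normalization gave 0 genes, as did a fit to the 2 wild-type groups alone.

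In the knockout, 0 of 57 genes changed from P0 to P5 by limma, and 0 passed at an unadjusted p under 0.05, against 10.5% of all genes tested that changed and 3164 at the unadjusted threshold. The median difference was 0.10, against -0.03 over all genes, and 46 of 57 were above 0. Differences ranged from -0.32 for Cox7c (SE 0.18, limma adjusted p = 0.301) to 0.43 for Ndufa3 (SE 0.41). Ndufs8 read 14.98, 15.10 and 15.27 in the P0 knockout samples and 15.53, 15.46 and 15.24 at P5, a difference of 0.29 (SE 0.32). Sdhd read 13.68, 14.26 and 13.88 and then 13.88, 13.99 and 13.9995, a difference of 0.01 (SE 0.16). Cyc1 read 15.07, 15.26 and 15.02 and then 15.28, 15.30 and 15.31, so its samples did not overlap, with a difference of 0.18 (SE 0.17). Ndufa9 and Uqcrfs1 also had all P5 knockout samples above all P0 knockout samples, which makes 3 of 57 genes, and 14.6% of all genes tested did so. In the deposited signals Ndufa9 and Uqcrfs1 did overlap, with Ndufa9 at 29275 in P0 sample 2 against 27292 in P5 sample 1. Without P0 knockout sample 1 the median difference was -0.12, and without sample 2 it was 0.21.

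A difference between the genotypes in the P5 minus P0 change was not detected. The interaction term was past the threshold for 0 of 57 genes by limma and for 0.0% of all genes tested, and 2 of the 57 and 622 of all genes had an unadjusted p under 0.05. Its median over the 57 genes was -0.46, against -0.06 over all genes, and 53 were below 0. Uqcr10 had -0.82 (SE 0.59), Ndufa4 -0.76 (SE 0.35), Atp5o -0.58 (SE 0.24) and Sdhd -0.51 (SE 0.23), each with a limma adjusted p of 0.743. These terms share the P0 samples with the comparisons above. Without P0 wild-type sample 2, 7 genes had a lower P5 minus P0 change in the knockout, where 1.25% of all genes did. With single samples left out, the median ran from -0.77 to -0.27.

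At P0, 0 of 57 genes differed between knockout and wild type by limma, against 0.0238% of all genes tested. The differences were mostly above 0, for 52 of 57 genes, with a median of 0.43 against 0.07 over all genes, and 10 of the 57 and 2033 of all genes had an unadjusted p under 0.05. The genotypes overlapped for all 57 genes, where 10.2% of all genes did not overlap in one direction or the other. The highest differences were in Ndufs8, at 0.82 (SE 0.32, limma adjusted p = 0.290), Uqcr10, at 0.81 (SE 0.42), and Uqcrq, at 0.80 (SE 0.34). The lowest was in Atp5a1, at -0.22 (SE 0.14, limma adjusted p = 0.404), which turned to 0.03 with the deposited scaling, where 55 of 57 genes were above 0. By complex, the medians were 0.51, 0.34, 0.37 and 0.39 for complexes I to IV and 0.43 for ATP synthase.

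The genes with the smallest p at P0 were Atp5o, Cox5a and Ndufa4. Atp5o, the stalk subunit that links the head of ATP synthase to its peripheral arm, read 15.20, 15.90 and 15.39 in wild type and 15.82, 16.15 and 16.14 in knockout. Its difference was 0.53 (SE 0.17, limma adjusted p = 0.287), and only wild-type sample 2 reached the knockout values. Cox5a, a complex IV subunit, read 15.13, 15.90 and 15.05 in wild type and 15.70, 15.91 and 16.03 in knockout, a difference of 0.52 (SE 0.18, limma adjusted p = 0.287). Ndufa4 read 15.04, 15.79 and 15.82 in knockout against the wild-type values above, a difference of 0.70 (SE 0.25, limma adjusted p = 0.287). Ndufs3, a core complex I subunit, read 13.57, 14.60 and 13.62 in wild type and 14.18, 14.67 and 14.61 in knockout, a difference of 0.56 (SE 0.22). In each of these genes, wild-type samples 1 and 3 lay below all knockout samples and sample 2 did not.

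The P0 comparison turned on wild-type sample 2. Without it, 47 genes were higher in the knockout and 1, Atp5a1, was lower, although its mean difference was 0.09 under the deposited scaling. The median difference was 0.78, and 14.6% of all genes tested were higher, while 845 of the 12598 were lower. Without wild-type sample 1 the count was 0 and the median 0.25, and without sample 3 it was 0 with a median of 0.34. Without both wild-type samples 1 and 2 the count was 9, all higher, where 3.18% of all genes were higher, and the median was 0.73, with the single remaining wild-type sample assumed to vary like the other groups. Leaving out knockout samples gave 0 genes each time, with medians of 0.66 without sample 1, 0.33 without sample 2 and 0.34 without sample 3. When arrays were weighted by their agreement with their group, 45 genes were higher and 1, again Atp5a1, lower in the knockout at P0. Of all genes, 16.6% were higher and 7.91% lower. The weights were 0.359, 0.189 and 2.45 in P0 wild type and 0.374, 1.13 and 0.730 in P0 knockout, so that wild-type sample 3 carried most of its group. With the same weights, 48 genes rose and 3, Atp5a1, Atp5b and Cox7c, fell between P0 and P5 in wild type. Of all genes, 26.4% rose and 21.5% fell in that comparison. In the weighted fit, 43 had a lower P5 minus P0 change in the knockout, with 8.67% of all genes.

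**Figure D5:**
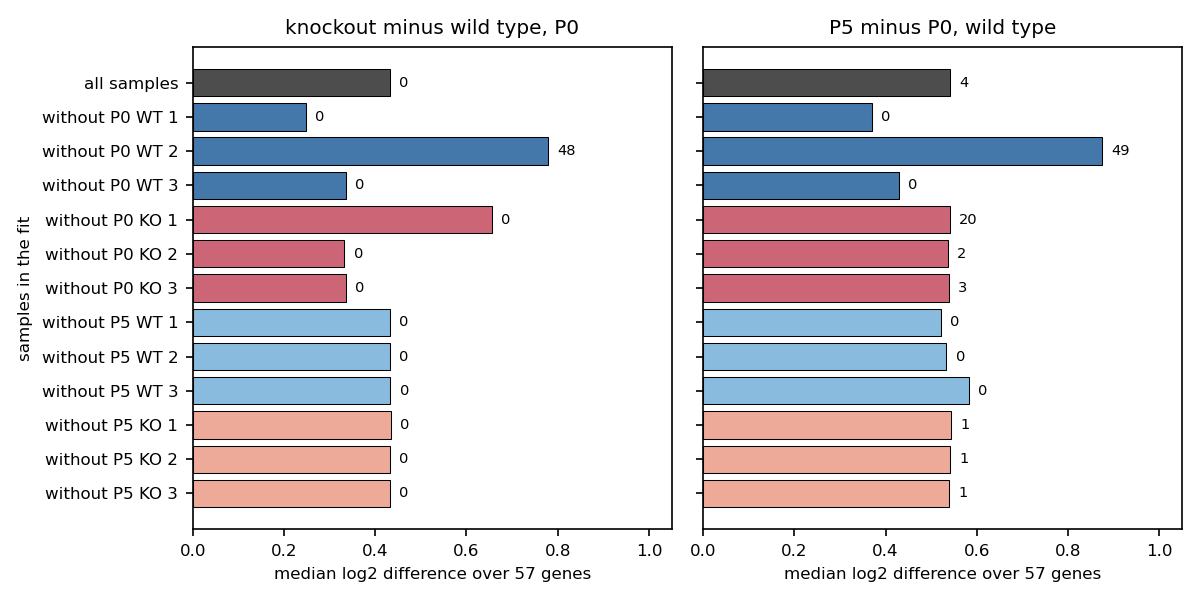
Bars give the median log2 difference over the 57 genes with all samples and with each sample left out in turn, for knockout minus wild type at P0 on the left and P5 minus P0 in wild type on the right. The number beside each bar counts genes past the threshold. The bars without P0 WT 2 are the longest, with 48 and 49 genes.

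Markers of other cell types also differed between the P0 groups, and their part in these differences was not tested. The summed signal of the 10 measured markers of meninges and fibroblasts was 73934 to 103459 in P0 wild type and 145363 to 178889 in P0 knockout. That of 9 microglial markers, with Itgam below the filter, was 16699 to 24763 and 24198 to 29978. That of 7 red blood cell markers, of which Hba-a1, Hbb-bh1 and Hbb-y lay below the filter, was 1812 to 2854 and 3514 to 5206. The neuronal markers summed to 535536 to 698864 in wild type and 577849 to 642537 in knockout. Oligodendrocyte markers summed to 62930 to 78593 in wild type and 52808 to 74836 in knockout, with 8 of 8 differences below 0. The microglial, neuronal and oligodendrocyte sums overlapped between the genotypes. Skeletal muscle, which is rich in these subunits, had 6 of its 12 markers below the filter, among them Myog, Myh3, Myh8, Tnni2 and Des, and the 12 summed to 5208 to 6333 in wild type and 6583 to 7249 in knockout.

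At P5 the genotypes lay close together. By limma 0 of 57 genes differed, against 0.00794% of all genes tested, and 0 of the 57 passed at an unadjusted p under 0.05, against 233 of all genes. The median difference was -0.02, with 19 genes above 0, and the range was from -0.20 for Ndufs4 (SE 0.29) to 0.20 for Uqcrc2 (SE 0.15), each with a limma adjusted p of 0.9998. With the probe sets used, all 4 genes of complex II were below 0, from -0.15 for Sdhd to -0.02 for Sdhb. Sdhd read 14.06, 14.03 and 14.23 in wild type and 13.88, 13.99 and 13.9995 in knockout, and Sdha read 14.71, 14.75 and 14.81 in wild type and 14.55, 14.70 and 14.69 in knockout. Neither gene overlapped between the genotypes after quantile normalization. Sdhc was likewise lower in all knockout samples and Ndufv1 higher, which makes 4 of 57 genes, and 12.9% of all genes tested did not overlap in either direction. In the deposited signals Sdha, Sdhd and Sdhc did overlap, and Ndufv1 did not. Sdhc, for example, was 21227 in knockout sample 3 against 20964 in wild-type sample 1. For Sdhc, Sdhd and Ndufv1, another probe set above the filter gave a genotype difference of the opposite sign.

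Averaged over both ages, 0 of 57 genes differed between the genotypes by limma, with 2 at an unadjusted p under 0.05, against 0.0238% of all genes tested at the threshold and 1087 unadjusted. The median difference was 0.21 and 52 genes were above 0. Cox5a had 0.32 (SE 0.13, limma adjusted p = 0.576) and Ndufs8 had 0.46 (SE 0.22, limma adjusted p = 0.587). Without P0 wild-type sample 2, 15 genes were higher in the knockout, where 4.49% of all genes were. With array weights, 40 were higher and 1 lower, where 11.6% of all genes were higher and 4.63% lower.

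Genes around the respiratory chain were counted from the same fit. In it, 1363 of the 12598 genes tested (10.8%) rose from P0 to P5 in wild type and 1079 fell. Of 16 further nuclear subunits, 2 rose from P0 to P5 in wild type, the ATP synthase c-ring gene Atp5g2 by 0.95 (SE 0.29) and Ndufs5 by 1.52 (SE 0.48), and the median was 0.66. Of 5 tissue-restricted isoforms, Cox7a1, a muscle form of a complex IV subunit, rose by 1.10 (SE 0.28, limma adjusted p = 0.0151). The 12 skeletal muscle markers, which include Cox7a1, summed to 5586 to 11588 in P5 wild type. The median deviation of the 6 above the filter was -0.16, -0.06 and 0.75 in its samples 1, 2 and 3. The part of muscle in the rise of Cox7a1 was not tested. Of 39 assembly factors, 3 rose and 3 fell. Cox17, a copper chaperone for complex IV, rose by 1.32 and Sdhaf1, which serves complex II, by 0.84, while Coa5 fell by 0.46 and Ttc19, a complex III factor, by 0.33. Of 73 mitochondrial ribosome genes, 9 rose and 0 fell by limma, with a median of 0.60 and Mrps36 at 1.02. Of 43 cytosolic ribosome genes, 5 rose and 0 fell by limma, with a median of 0.32.

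Of 16 genes of the tricarboxylic acid cycle, 2 rose in wild type, Suclg2 by 0.77 and Suclg1 by 0.70, both subunits of succinyl-CoA synthetase. Of 14 glycolytic genes, 3 rose and 1 fell, with Hk2, a hexokinase, higher by 0.72 and Pfkp, a phosphofructokinase, lower at -0.81. In the knockout, Suclg2 rose by 0.55, Hk2 rose by 0.79 and Pfkp fell by 0.80, where 697 of all 12598 genes tested rose and 624 fell. Of 17 regulators of mitochondrial biogenesis, 0 changed in wild type by limma and 0 had an unadjusted p under 0.05, while Gabpa, the DNA-binding subunit of the ETS factor above, rose by 0.46 in the knockout (SE 0.13, limma adjusted p = 0.0410) and had a difference of 0.18 (SE 0.13) in wild type. Of 19 genes of mitochondrial transport and the outer membrane, 3 rose and 1 fell in wild type, with the adenine nucleotide carrier Slc25a5 higher by 0.48 and Opa1, a fusion protein, lower at -0.58. In the P0 genotype comparison 0 genes of these lists passed the threshold by limma, and the mitochondrial ribosome had a median of 0.48 with 72 of 73 genes above 0 and 27 at an unadjusted p under 0.05.

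A single gene encoded in mitochondrial DNA could be followed, ND5, a proton-pumping subunit of complex I. Its deposited signal was 135580, 232106 and 107492 in the P0 wild-type samples and 157938, 152786 and 142346 in the P0 knockout samples. It was 149035 to 158718 in P5 wild type and 140174 to 162004 in P5 knockout. Sample 2 of P0 wild type was thus the highest of all 12, and samples 1 and 3 of that group were the lowest. At the top of the array, quantile normalization sets a value by its rank, so no normalized differences are given for this gene.

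Other probe sets of the same genes mostly gave the same direction. Beside the brightest probe set, 36 of the genes had 57 others above the filter. In P5 minus P0 in wild type, 52 of these 57 had the sign of the probe set used, with a median of 0.55, and in knockout minus wild type at P0 it was 51 of 57. Those of opposite sign were in Ndufab1, Ndufb2, Sdha and Sdhd in the first comparison. In the second they were in Atp5a1, Ndufab1, Ndufb2, Ndufs8, Sdha and Sdhd. At P5, where the differences were near 0, the genotype difference had the same sign in 27 of 57. For Ndufs8, 5 other probe sets gave 0.996, 0.812, 0.799, 0.762 and 0.0123 for P5 minus P0 in wild type, and for Atp5d another gave 0.75. The second Sdhd probe set, at a lower signal, gave -0.18 (SE 0.31) where the one used gave the called rise of 0.52. For Cox6a1, the probe set used gave 0.11 (SE 0.12) and its second gave 0.64 (SE 0.28).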

How the data were processed

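The authors deposited one table of probe set signals for the 12 arrays, an intensity on a linear scale, and the summarizing software was not given in the sources used here. Each array's mean without its highest and lowest 2% of signals was 2500.01, so arrays had been scaled. Of 45101 probe sets, 64 controls were left out, 34945 had a single gene symbol in the platform annotation, 932 several and 9160 none.

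Values were transformed as log2(signal + 16) and quantile-normalized. The brightest probe set stood for each gene, and those below the 40th percentile (8.72) were left out. With limma 3.58.1 under R 4.3.3, the 12 samples were fitted with one mean for each group (8 residual degrees of freedom), giving 6 contrasts and Benjamini-Hochberg adjustment over 12598 genes. Every adjusted p comes from limma. Differences understate the change of dim genes. The fit was tested on simulated data.

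The list of genes, the other lists and the naming rule were chosen with earlier results of these data known. Named were the 10 largest called differences of a comparison, or the 5 smallest p where fewer than 5 were called, the highest and lowest gene of each complex, genes whose probe sets disagree, and up to 4 genes of each other list. Core and stalk subunits were added after their values were seen. Replicate numbers were not used to pair the samples in the main fit. Alternatives changed normalization, pseudocount, filter, weights, prior, probe set choice, block and samples. Tables and figures used Python 3.11.15, and promoters came from RefSeq.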

Additional observations from a re-analysis of the deposited data

How the results depend on the processing

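The median difference over the 57 genes kept its sign under all alternatives run for knockout minus wild type at P0, for the average over ages, for P5 minus P0 in wild type and for the interaction. Single samples left out gave counts of genes past the threshold of 0 to 48 for knockout minus wild type at P0, with medians of 0.25 to 0.78, 0 to 15 for the average over ages, 0 to 49 for P5 minus P0 in wild type, with medians of 0.37 to 0.87, and 0 to 7 for the interaction. Array weights gave 46, 41, 51 and 43 genes in that order, with a median of 0.77 at P0. Without P0 wild-type samples 1 and 2, the first 3 of these counts were 9, 2 and 37, where 400, 22 and 1762 of 12598 genes were higher. For P5 minus P0 in wild type, the count was 0 with the deposited scaling, 0 with only the groups compared, 2 with no filter and 1 with no intensity trend in the prior. The cause was not tested. The difference of Atp5a1 in knockout minus wild type at P0 turned from -0.22 to 0.03 with the deposited scaling. Samples of the same replicate number in different groups had correlations from -0.13 to 0.42 in their deviations from the group mean. At P0, wild type and knockout had 0.42 for samples 1, 0.38 for samples 2 and 0.06 for samples 3. The labels do not say whether samples of the same number were paired, and the main fit assumed no pairing. With the replicate number as a block, 18 genes rose in P5 minus P0 in wild type, where 13.3% of all genes did, and no genes in the other comparisons by limma. Counts for knockout minus wild type at P5 and P5 minus P0 in knockout were 0 under all alternatives, and their medians crossed 0 when single samples were left out. For the genes named in each comparison, 1607 values kept their direction and side of the threshold under the alternatives, 68 came to pass it, 48 no longer passed and 39 others moved. The number of arrays, 3 a group, and the pooled SD of 0.322 between sample medians within groups limit what these comparisons can show.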

Other observations

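Ndufa12, an accessory complex I subunit outside the list and named after its values were seen, differed between the genotypes at P5 by more than any of the 57 genes. It read 15.76, 15.75 and 15.63 in P5 wild type and 14.75, 14.61 and 14.98 in P5 knockout (log2 level by sample), with no overlap and a difference of -0.93 (SE 0.30, limma adjusted p = 0.9998). Over all genes tested, 12.9% did not overlap between the genotypes at P5 in one direction or the other. At P0 Ndufa12 read 14.74, 15.76 and 14.78 in wild type and 14.21, 14.78 and 15.58 in knockout, with overlap and a difference of -0.24 (SE 0.30). The cause was not tested.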
